A study of Mus musculus with 40 samples.

Results

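Chemokine ligand genes that T cells can transcribe were followed across mouse splenic CD4 T cells at 3 stages of culture. The 8 genes, Ccl3, Ccl4, Ccl5, Ccl9, Ccl1, Ccl22, Xcl1 and Cxcl10, were picked by name, and each matched 1 of the 39179 genes in the RNA table. Naive cells were taken at day 0 from C57BL/6 mice, either Setdb1+/+ (WT, 4 libraries) or Setdb1-/- (Setdb1 KO, 3 libraries). T helper 2 (Th2) cells were the product of 6 days with IL-4 and an antibody that neutralizes IFN-gamma, with anti-CD3 and anti-CD28 for the first days and IL-2 afterwards (3 WT and 3 Setdb1 KO libraries). Th2-Th1 cells were Th2 cells washed and kept for 2 more days with IL-12 and an antibody to IL-4, the conditions that drive T helper 1 (Th1) cells (2 WT and 3 Setdb1 KO libraries). The labels do not say whether the T cell receptor was stimulated again during the switch, so Th2-Th1 cells differed from Th2 cells in medium and in time at once. Histone marks and open chromatin were mapped in naive and Th2 cells, and H3K9me3 also in Th2 cells of Suv39h1-/- mice. SETDB1 and SUV39H1 are enzymes that place H3K9me3, a mark of silent chromatin.

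Chemokines are small secreted proteins that bind G protein-coupled receptors and steer the migration of leukocytes. CCL3, CCL5 and CCL9 bind CCR1, CCL1 binds CCR8, CCL22 binds CCR4, XCL1 binds XCR1, and CXCL10 binds CXCR3. Activated T cells are a known source of several of these ligands, and CXCL10 is a classical interferon-induced gene product. Th1 cells are known to carry CXCR3, and Th2 cells CCR4 and CCR8.

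RNA values are the authors' normalised read counts, which are reads scaled by a factor for each library and are not corrected for gene length, so levels are compared within a gene and not between genes. Naive libraries held 10.02 to 18.51 M reads (WT) and 12.77 to 15.34 M (Setdb1 KO). The WT libraries of Th2 cells (10.14 to 13.26 M) and Th2-Th1 cells (18.9 to 19.84 M) were shallower than their Setdb1 KO counterparts (36.26 to 44.72 M and 37.21 to 37.6 M). Naive WT replicates 1 and 3 and naive Setdb1 KO replicate 2 had reads on 21915, 25556 and 22890 genes, against 15296 to 19359 in the other naive libraries. The level of Setdb1 went against the labels outside naive cells: Th2 WT had 822.6 ± 121 (SD, n = 3) and Th2 libraries labelled Setdb1 KO 8485 ± 503 (n = 3), and the Th2-Th1 pair had 1603 ± 12.1 (n = 2) and 6244 ± 1020 (n = 3). The naive pair had 1310 ± 66.4 (n = 4, WT) and 1006 ± 87.2 (n = 3, Setdb1 KO). Gene counts alone do not show whether the deleted exons were absent, so every direction drawn below from Setdb1 KO refers to the libraries so labelled. All 8 CD4 T cell markers, among them Cd3e, Cd4 and Lck, were detected in every group, but their summed level moved with the groups: 93530 to 102700 (WT) and 74350 to 92060 (Setdb1 KO) in naive cells, 51910 to 53220 and 37710 to 40630 in Th2 cells, and 103600 to 107500 and 51880 to 57550 in Th2-Th1 cells. In Th2-Th1 cells 5 of the 8 were called lower with the Setdb1 KO label, among them Cd3g (log2 -1.32) and Cd4 (-1.14). Of all genes 16.1% were called lower there and 33.7% either way. In Th2 cells 4 were called lower and 1 higher, Cd3e (0.94), where 54.0% of all genes were called either way. In naive cells 2 were called lower and 1 higher, where 10.9% of all genes were called. Differences were tested with limma on log2(value + 1) over 17254 genes, with p adjusted by Benjamini-Hochberg and a threshold of 0.05. Whether replicates came from separate mice or cultures is not in the labels. The p-values therefore measure the spread between these libraries, which may be technical.

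Promoter sequence was taken from RefSeq (GRCm38.p6, the assembly behind mm10) for the 250 bases before the annotated start, 5′ to 3′ on the gene's strand. Of the 8 genes, 6 had an entry, and 4 are printed: Ccl3, Ccl9 and Ccl1, which were scarce in Th2 cells and abundant in Th2-Th1 cells, and Cxcl10, which was called higher with the Setdb1 KO label in naive and in Th2-Th1 cells. All 4 lie on the minus strand, and capitals mark letters that match one of 7 short motifs searched on both strands. The Ccl3 window is chr11:83649379-83649628, the Ccl9 window chr11:83578637-83578886, the Ccl1 window chr11:82179813-82180062 and the Cxcl10 window chr5:92348890-92349139.
Ccl3: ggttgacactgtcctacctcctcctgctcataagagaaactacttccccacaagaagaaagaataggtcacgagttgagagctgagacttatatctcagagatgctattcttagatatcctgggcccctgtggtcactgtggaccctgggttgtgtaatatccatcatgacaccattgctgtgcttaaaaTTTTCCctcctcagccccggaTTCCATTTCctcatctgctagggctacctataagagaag
Ccl9: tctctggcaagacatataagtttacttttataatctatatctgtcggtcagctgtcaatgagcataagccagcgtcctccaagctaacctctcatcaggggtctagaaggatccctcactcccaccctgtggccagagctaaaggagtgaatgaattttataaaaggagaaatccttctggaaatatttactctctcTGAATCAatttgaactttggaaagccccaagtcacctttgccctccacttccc
Ccl1: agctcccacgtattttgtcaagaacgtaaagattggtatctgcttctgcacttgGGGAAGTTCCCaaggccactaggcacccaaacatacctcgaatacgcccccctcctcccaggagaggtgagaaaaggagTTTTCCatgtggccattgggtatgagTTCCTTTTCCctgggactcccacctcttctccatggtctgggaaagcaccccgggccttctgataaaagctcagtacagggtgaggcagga
Cxcl10: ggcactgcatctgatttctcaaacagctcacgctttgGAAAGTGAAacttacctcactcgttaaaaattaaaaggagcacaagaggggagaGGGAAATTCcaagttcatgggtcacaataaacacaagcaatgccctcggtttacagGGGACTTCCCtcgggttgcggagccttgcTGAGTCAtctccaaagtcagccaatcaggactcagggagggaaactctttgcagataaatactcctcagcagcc

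The Cxcl10 window held letters of an interferon-stimulated response element, searched as GAAANNGAA, at -213 to -205 from the start, of kappaB (GGGANNTNC) at -159 to -151 and, on both strands, at -103 to -95 and -102 to -94, and of AP-1 (TGANTCA) at -74 to -68. Over 32851 promoter windows of the same length, 7.13% held the response element letters, 12.5% the kappaB letters and 6.75% the AP-1 letters. The Ccl1 window had kappaB letters on both strands at overlapping positions, -196 to -188 and -194 to -186. It also had NFAT letters (GGAAAA, in 20.4% of all windows) on the opposite strand at -117 to -112 and -87 to -82, the latter overlapping response element letters at -91 to -83. The Ccl3 window had NFAT letters at -60 to -55 and response element letters at -39 to -31, both on the opposite strand, and the Ccl9 window had AP-1 letters at -53 to -47. Of the windows not printed, Xcl1 had T-box letters (TCACACC, 3.33% of windows) at -188 to -182 and Ccl22 kappaB letters at -147 to -139, both on the opposite strand. The STAT motif GAS (TTCNNNGAA, 7.02% of windows) was in none of the 6. The same held for the motif of GATA factors, searched as AGATAAG and found in 2.74% of windows. A match describes letters and not binding.

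After the switch to Th1 conditions, 5 of the 8 ligands rose in both genotypes: Ccl3, Ccl4, Ccl5, Ccl9 and Ccl1. In WT, 6 of the 7 tested ligands were called higher in Th2-Th1 than in Th2 cells, where 25.8% of all tested genes were called higher and 49.8% either way. In libraries labelled Setdb1 KO 5 of 7 were called, all of them higher, where 26.7% of genes were called either way and 2251 of the 17254 were higher. No ligand was called lower, beside 24.0% of genes in WT and 13.6% in Setdb1 KO. The median log2 difference over the 7 ligands was 6.10 in WT and 6.87 in Setdb1 KO, against 0 over all genes in each. Ccl1 and Xcl1 passed the low-value filter (at least 10 in 2 libraries) almost wholly or wholly through Th2-Th1 libraries, so these counts and medians describe the tested ligands and are not read against the background. Ccl22 was not tested. In bulk RNA, more cells making a ligand and more RNA per cell cannot be told apart.

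**Figure D1:**
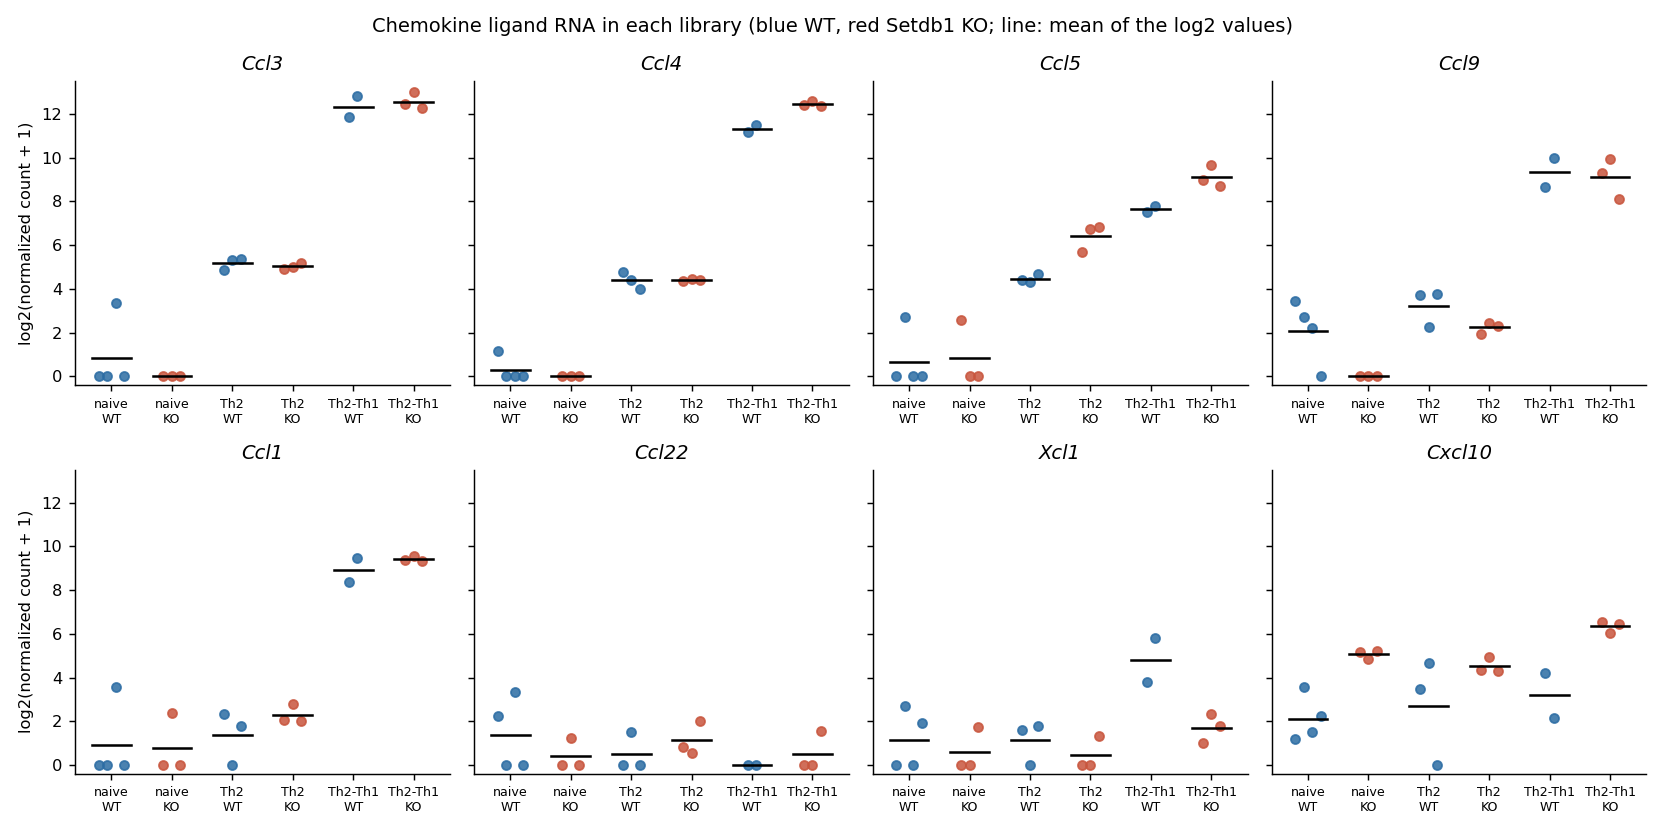
Normalised read count + 1 of each of the 8 ligands (log axis) in each of the 18 RNA libraries, by group, with 1 point per library. Ccl3, Ccl4, Ccl5, Ccl9 and Ccl1 are highest in the 5 Th2-Th1 libraries, Ccl22 is near 0 everywhere, and Cxcl10 is higher in all 3 Setdb1 KO libraries than in both WT libraries of Th2-Th1 cells.

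Ccl3, which encodes the CCR1 ligand MIP-1 alpha, was at 28.2, 39.0 and 39.9 in the Th2 WT libraries and at 3652 and 7108 in Th2-Th1 WT. The libraries labelled Setdb1 KO had 29.0, 30.4 and 35.5 in Th2 and 5508, 8081 and 4891 in Th2-Th1. The groups of the 2 stages were far apart in both genotypes, and every Th2 value was at or below 39.9. The ratio of means was 151-fold in WT (log2 7.13 ± 0.72 SE, limma adjusted p = 1.08e-07) and 195-fold in Setdb1 KO (7.53 ± 0.64, adjusted p = 3.73e-08).

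Ccl4, which encodes MIP-1 beta, is the chromosomal neighbour of Ccl3. It was at 26.2, 20.4 and 15.0 in Th2 WT and at 2329 and 2834 in Th2-Th1 WT. With the Setdb1 KO label it was at 19.5, 21.0 and 19.98 in Th2 and at 5468, 6072 and 5206 in Th2-Th1. Neither genotype showed any overlap between stages. The means differed by 126-fold in WT (log2 6.93 ± 0.45, adjusted p = 3.15e-10) and by 277-fold in Setdb1 KO (8.04 ± 0.40, adjusted p = 2.72e-11). The annotated spans of Ccl3 (chr11:83647843-83649378) and Ccl4 (chr11:83648624-83664683) overlap in RefSeq, the Ccl4 span including a predicted transcript. The annotation and strand setting of the counting were not given in the sources used here. Whether reads in the shared stretch were counted for either gene, for both or for neither is therefore not known.

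Ccl5, or RANTES, a ligand of CCR1 and CCR3, had the smallest fold of the 5. It was at 20.2, 18.6 and 24.9 in Th2 WT and at 184 and 218 in Th2-Th1 WT. Libraries labelled Setdb1 KO had 50.1, 106 and 111 in Th2 and 499, 798 and 418 in Th2-Th1. The 2 stages did not overlap within a genotype. The ratio of means was 9.49-fold in WT (log2 3.19 ± 0.82, adjusted p = 0.00291) and 6.41-fold in Setdb1 KO (2.70 ± 0.73, adjusted p = 0.00881). The Setdb1 KO call was lost without Th2 replicate 1 (adjusted p = 0.053) or Th2-Th1 replicate 2 (0.0508).

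Ccl9, a CCR1 ligand that lies between Ccl5 and Ccl3 on chromosome 11, was scarce until the switch. It was at 12.1, 3.71 and 12.5 in Th2 WT and at 407.5 and 1024 in Th2-Th1 WT. In Setdb1 KO it was at 2.78, 4.48 and 4.0 in Th2 and at 622, 976 and 272 in Th2-Th1. The Th2-Th1 libraries of each genotype differed among themselves by more than the genotypes did, yet all lay well above Th2. The means differed by 75.9-fold in WT (log2 6.10 ± 0.83, adjusted p = 5.04e-06) and by 166-fold in Setdb1 KO (6.87 ± 0.75, adjusted p = 8.24e-07).

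Ccl1, the CCR8 ligand, went from almost no reads to a clear signal. In Th2 WT it was at 4.03, 0 and 2.49, which stands for 3 reads in all, and in Th2-Th1 WT at 334 and 704. The Setdb1 KO values were 3.18, 5.82 and 2.998 in Th2 and 655, 755 and 639 in Th2-Th1. The ratio of reads was 249 in WT, with a 95% counting interval of 85 to 1210 that covers counting error only (log2 7.55 ± 1.00, adjusted p = 3.73e-06). In Setdb1 KO the ratio of means was 171-fold (7.14 ± 0.90, adjusted p = 5.38e-06). Because Ccl1 had a value of 10 or more in only 1 library outside Th2-Th1, it entered the test through the stage where it was high.

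Xcl1, or lymphotactin, the XCR1 ligand, passed the filter only through the 2 Th2-Th1 WT libraries, so it had to be high there and the calls below give no independent support. It was at 2.02, 0 and 2.49 in Th2 WT and at 12.99 and 54.6 in Th2-Th1 WT. The Setdb1 KO libraries had 0, 0 and 1.5 in Th2 and 0.978, 4.01 and 2.46 in Th2-Th1. The 2 Th2-Th1 WT libraries were the highest of all 18, and they differed widely from each other. The ratio of reads was 24.4 in WT (interval 6.45 to 206, log2 3.67 ± 1.00, adjusted p = 0.00481) and 5.56 in Setdb1 KO (interval 1.57 to 30, log2 1.26, adjusted p = 0.359).

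Cxcl10, the interferon-induced CXCR3 ligand, did not share the pattern of the CC chemokines. It was at 10.1, 24.1 and 0 in Th2 WT and at 17.7 and 3.49 in Th2-Th1 WT, a full overlap (log2 0.49, adjusted p = 0.736). In libraries labelled Setdb1 KO it was at 19.1, 30.0 and 18.5 in Th2 and at 92.9, 64.1 and 86.7 in Th2-Th1. The Setdb1 KO stages did not overlap and the means differed by 3.61-fold, but limma did not call the difference (log2 1.82 ± 0.89, adjusted p = 0.152). Count models on the recovered reads did call it (adjusted p = 0.033 with edgeR and 0.0172 with DESeq2). Of 17 alternatives, 5 called it and 12 did not.

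Ccl22, a CCR4 ligand best known from dendritic cells and macrophages, had at most 6 reads in any library. Its normalised count was 0 or below 10 in all 18, with the highest value, 9.05, in naive WT replicate 3, and it was 0 in both Th2-Th1 WT libraries. It failed the low-value filter, so for these cells the data go against describing it as a ligand that was being transcribed at a measurable level.

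**Figure D2:**
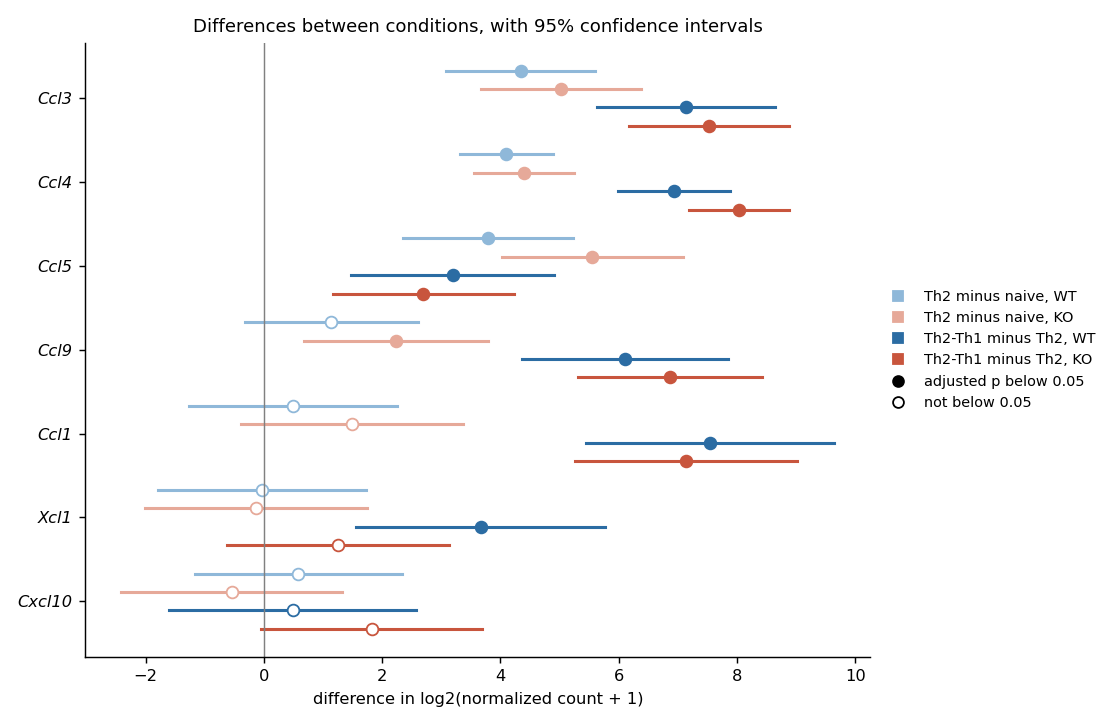
Log2 difference of each tested ligand between stages, Th2 minus naive and Th2-Th1 minus Th2, for WT and for libraries labelled Setdb1 KO, with 95% confidence intervals from limma and filled points where the adjusted p was under 0.05. Ccl3, Ccl4, Ccl9 and Ccl1 lie between 6.10 and 8.04 for the switch in both genotypes, and Cxcl10 lies at 0.49 for the switch in WT.

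At the first step, from naive to Th2 cells, Ccl3, Ccl4 and Ccl5 rose in both genotypes. In WT they were the ones called higher, 3 of 7 ligands, where 32.8% of all genes were called higher and 65.9% either way, so the share was near the background. In libraries labelled Setdb1 KO the same 3 and Ccl9 were called higher, 4 of 7, against 28.3% of genes higher and 53.5% either way. The medians over the 7 ligands were 1.14 in WT and 2.23 in Setdb1 KO, beside -0.14 and -0.03 over all genes. Both stage comparisons use the Th2 libraries, so they are not independent of each other.

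Ccl3 had 5 reads in 1 naive WT library (9.05) and none in the other 6 naive libraries. Th2 WT was called higher (log2 4.35 ± 0.60, adjusted p = 2.69e-06), with no fold given because the naive mean rests on that library. In Setdb1 KO, where naive libraries were all at 0, Th2 was at least 8.39-fold higher, taking 3 reads per naive library as the floor (log2 5.02 ± 0.64, adjusted p = 1.75e-06). Ccl4 had 1 read in 1 naive library and none in the others. Its reads differed 65.7-fold in WT, with a counting interval of 10.9 to 2680 (log2 4.10 ± 0.38, adjusted p = 9.6e-09), and at least 5.35-fold in Setdb1 KO (4.40 ± 0.40, adjusted p = 1.87e-08). Both genes were therefore close to silent at day 0 and were present, at low levels, in every Th2 library.

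Ccl5 was at 5.48 in 1 naive WT library, at 4.96 in 1 naive Setdb1 KO library and at 0 in the other 5. It rose in WT (log2 3.79 ± 0.68, adjusted p = 6.57e-05) and in Setdb1 KO (5.55 ± 0.73, adjusted p = 2.49e-06). No fold is given, because each naive mean rests on 4 reads in 1 library. Ccl9 was at 9.98, 5.48, 3.62 and 0 in naive WT, which overlaps Th2 WT (log2 1.14, adjusted p = 0.154). It was at 0 in all 3 naive Setdb1 KO libraries against 7 to 10 reads per Th2 Setdb1 KO library (log2 2.23 ± 0.75, adjusted p = 0.0162). No fold is given for that pair, because the Th2 mean of 3.75 is no higher than the value of 3 reads in a naive library. Th2 Setdb1 KO libraries were also the deepest, and the Ccl9 call was lost when all libraries were thinned to one depth (adjusted p = 0.329), at a pseudocount of 5 (0.167) and with edgeR (0.0574).

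Ccl1 and Xcl1 were at or below 10.9 and 5.48 in every naive and Th2 library and did not differ detectably between those stages. Cxcl10 was at 1.25, 11.0, 1.81 and 3.78 in naive WT, within the range of Th2 WT. In libraries labelled Setdb1 KO it was at 34.7, 27.8 and 35.5 in naive cells and at 19.1, 30.0 and 18.5 in Th2 cells, which overlap.

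The libraries labelled Setdb1 KO differed from WT at few ligands, and Cxcl10 was the one called in more than one stage. In naive cells 1 of 7 ligands was called higher, Cxcl10, where 7.43% of genes were called higher and 10.9% either way. In Th2 cells 1 of 7 was called higher, Ccl5, where 29.3% were called higher and 54.0% either way. In Th2-Th1 cells Cxcl10 was called higher and Xcl1 lower, 2 of 7, where 17.6% of genes were called higher, 16.1% lower and 33.7% either way. In Th2 and in Th2-Th1 cells the share of ligands called was thus no larger than that of all genes. The medians over the ligands were -0.29, 0.01 and 0.49 in the 3 stages, beside 0.00, 0.13 and 0.09 over all genes.

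**Figure D3:**
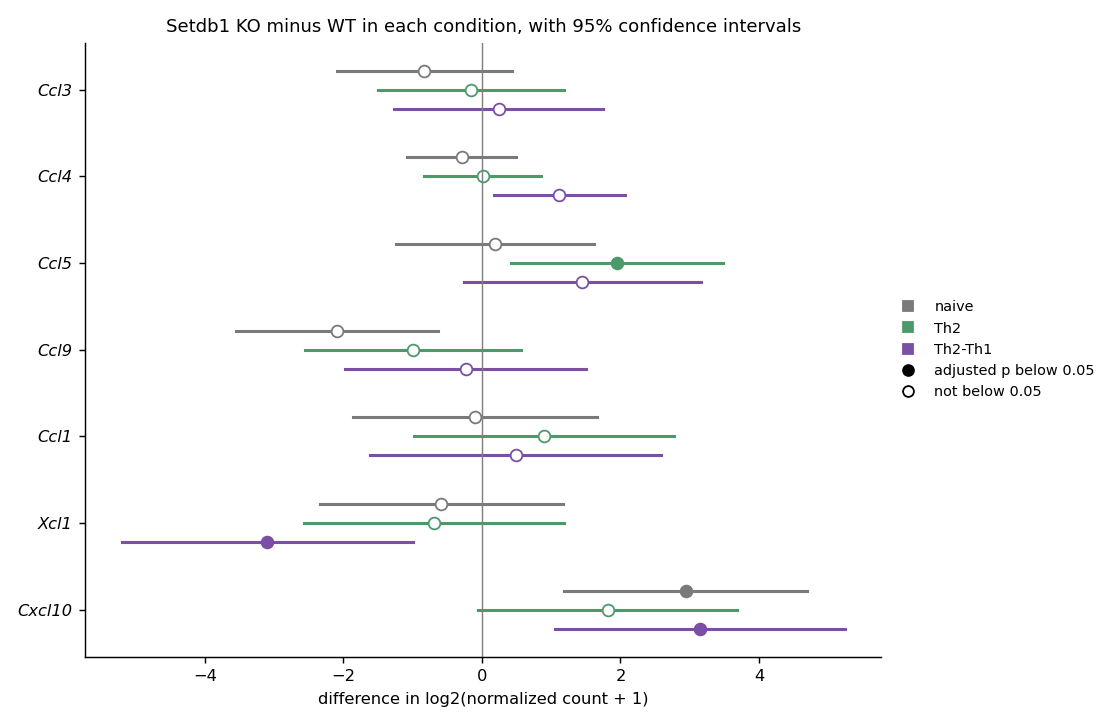
Log2 difference, libraries labelled Setdb1 KO minus WT, of each tested ligand in naive, Th2 and Th2-Th1 cells, with 95% confidence intervals from limma and filled points where the adjusted p was under 0.05. Cxcl10 lies above 0 in all 3 stages, at 2.94, 1.81 and 3.15, and Ccl3 lies close to 0 in Th2 and Th2-Th1 cells.

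Cxcl10 was higher in each of the 3 naive Setdb1 KO libraries (27.8 to 35.5, 20 to 31 reads) than in any of the 4 WT ones (1.25 to 11.0, 1 to 8 reads). The ratio of means was 7.34-fold (log2 2.94 ± 0.84, adjusted p = 0.0275). This call was fragile: it was lost without WT replicate 1 (adjusted p = 0.0759) or 3 (0.0567), without Setdb1 KO replicate 1 (0.0938), 2 (0.0748) or 3 (0.0571), without any low-value filter (0.0625), and without the 3 naive libraries with reads on more genes (0.283). In Th2 cells the groups overlapped and the difference was not called (log2 1.81 ± 0.89, adjusted p = 0.0948). Without Th2 WT replicate 2, the highest WT library, it was called (limma adjusted p = 0.0138), and in the other 16 alternatives it was not.

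In Th2-Th1 cells the 3 Setdb1 KO libraries (64.1 to 92.9) lay above both WT libraries (17.7 and 3.49). The ratio of means was 7.67-fold (log2 3.15 ± 1.00, adjusted p = 0.0196), and the call was lost without WT replicate 2 (adjusted p = 0.249) or Setdb1 KO replicate 1 (0.0537). With 2 WT libraries that themselves differed by several-fold, the size of the difference is loosely fixed.

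Ccl5 was higher in the 3 Th2 libraries labelled Setdb1 KO (50.1, 106 and 111) than in the 3 WT libraries (18.6 to 24.9, 10 reads each). The ratio of means was 4.2-fold (log2 1.95 ± 0.73, adjusted p = 0.0306). The call was lost at a pseudocount of 0.5 (adjusted p = 0.0831), without a filter (0.0616), without Th2 WT replicate 1 (0.0649) or 2 (0.0727), and without Setdb1 KO replicate 2 (0.093) or 3 (0.0985). In Th2-Th1 cells Ccl5 was again without overlap, 499, 798 and 418 against 184 and 218, a 2.84-fold ratio of means that limma did not call (log2 1.45 ± 0.82, adjusted p = 0.19). edgeR (adjusted p = 0.00735) and DESeq2 (0.00243) called it. Of 16 alternatives, 4 called it and 12 did not, among them every fit with a single library left out.

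Ccl4 in Th2-Th1 cells was 2.16-fold higher in mean in the libraries labelled Setdb1 KO, 5206 to 6072 against 2329 and 2834, with no overlap. limma on all 18 libraries missed the threshold (log2 1.12 ± 0.45, adjusted p = 0.064). The difference was called with edgeR (adjusted p = 5.17e-06), with DESeq2 (4.82e-12), with only the 2 groups in the fit (0.000119) and when libraries were thinned to one depth (0.0379). In all, 8 of 16 alternatives called it and 8 did not. Every fit with a single library left out was among those that did not, with log2 from 0.975 to 1.26. In Th2 cells Ccl4 did not separate the genotypes (log2 0.01 ± 0.40, 95% interval -0.84 to 0.85).

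Ccl3, the neighbour of Ccl4, overlapped between genotypes in both stages. Its difference was -0.16 ± 0.64 on the log2 scale in Th2 cells (95% interval -1.51 to 1.19) and 0.24 ± 0.72 in Th2-Th1 cells (-1.27 to 1.75). Ccl9 (-0.23 ± 0.83, interval -1.98 to 1.51) and Ccl1 (0.49 ± 1.00, interval -1.61 to 2.59) also overlapped in Th2-Th1 cells. These intervals are wide enough to hold a doubling in either direction for Ccl3, Ccl9 and Ccl1. In naive cells Ccl9 had 14 reads over the 4 WT libraries and none over the 3 Setdb1 KO ones (log2 -2.09 ± 0.70, adjusted p = 0.0617). That difference was called with DESeq2, at a pseudocount of 0.5, with a filter at 50 and without WT replicate 4 (limma adjusted p = 0.00481). In all, 5 of 17 alternatives called it and 12 did not.

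Xcl1 fell in the Th2-Th1 libraries labelled Setdb1 KO relative to WT, 0.978 to 4.01 against 12.99 and 54.6 (log2 -3.10 ± 1.00, adjusted p = 0.0219). Its place in the test rested on those 2 WT libraries, and it could not be tested without either. The call was lost at a pseudocount of 0.5 (adjusted p = 0.0578), with edgeR (0.0565), with DESeq2 (0.0522) and without Setdb1 KO replicate 1 (0.0787).

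Whether the genotype difference changed between stages was tested as an interaction. limma called 0 of 7 ligands for the step to Th2, where 41.3% of genes were called, and 0 of 7 for the switch, where 35.5% were called. In neither was any ligand at an unadjusted p under 0.05. For the step to Th2, edgeR and DESeq2 also called 0. For the switch each called 1, Ccl4 (adjusted p = 0.00812 with edgeR and 0.00381 with DESeq2), whose limma estimate was 1.11 ± 0.61 (adjusted p = 0.17). Xcl1 (-2.41, adjusted p = 0.181), Cxcl10 (1.33, adjusted p = 0.489) and Ccl5 at the step to Th2 (1.76, adjusted p = 0.173) had the other large estimates. A genotype effect on Cxcl10 that differed between stages was therefore not shown.

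The ligands were also set beside every other tested gene by the shape of their profile over the 6 group means on the log2 scale, with likeness given as the root mean square difference after centring. Nearest to Ccl3 were Crabp2 (0.622), a retinoic acid binding protein, and Zbtb32 (0.685), a zinc finger repressor. Zbtb32 (0.74) and Crabp2 (0.815) were also nearest to Ccl4. Among the ligands themselves Ccl3 and Ccl4 were closest, at 0.351, so each was nearer to the other than to any gene outside the set. Ccl9 was nearest to Sema3a (0.563), a secreted semaphorin, and Dlg2 (0.739), and Ccl1 to Pdpn (0.369), which encodes podoplanin, and Sema3a (0.57). Ccl9 and Ccl1 were 0.901 apart. Nearest to Ccl5 were Serpine2 (0.385) and Gap43 (0.479). Xcl1 was nearest to Mrps25 (0.322) and Kcnj12 (0.357). Nearest to Cxcl10 were AU020206 (0.45) and Oas3 (0.455), the latter an interferon-induced antiviral gene. These are descriptions over 6 groups and carry no test.

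Of 30 other chemokine ligand genes, 10 were abundant enough to test. In Th2-Th1 cells 2 of the 10 were called higher in the libraries labelled Setdb1 KO and none lower. Of all genes 17.6% were called higher and 16.1% lower, so the share called higher was near the background. They were Cxcl9 and Cxcl11, the remaining CXCR3 ligands, which are interferon-induced like Cxcl10. Cxcl11 was at 49.4, 57.1 and 61.1 in the Setdb1 KO libraries and at 0 in both WT libraries (log2 5.82 ± 1.00, adjusted p = 0.000157). Cxcl9 was at 49.9, 55.6 and 73.4 against 3.54 and 0 (4.81 ± 0.96, adjusted p = 0.000647). Cxcl9 and Cxcl11 had no value of 10 or more in Th2 cells, and they passed the filter through the group where they were high, so their calls describe that group and no more.

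For the switch, 5 of the 10 other ligands were called higher in WT and 7 in Setdb1 KO, and none lower. Of all genes 49.8% and 26.7% were called either way. Cxcl1, Cxcl9, Cxcl11 and Cxcl16 were at 0 in every Th2 WT library, so they could not be called lower in WT. These counts therefore describe the tested ligands and are not read against the background. In WT the largest were Cxcl3 (log2 6.47), Cxcl5 (5.46) and Cxcl1 (4.39), all neutrophil-attracting ligands of CXCR2. In libraries labelled Setdb1 KO they were Cxcl11 (5.82), Cxcl9 (5.25) and Cxcl16 (3.64). For the step from naive to Th2, 2 were called higher and 2 lower in WT, among them Cxcl2 (4.98), Cxcl3 (3.89) and Ccl28 (-2.41). In Setdb1 KO 2 were higher and none lower. Of all genes 65.9% in WT and 53.5% in Setdb1 KO were called either way at that step. Between genotypes none was called in naive cells (10.9% of all genes either way). In Th2 cells 1 was higher, Cxcl3 (3.58, limma adjusted p = 0.00017), where 54.0% of all genes were called either way.

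Receptors of the ligands were followed through 6 genes, Ccr1, Ccr3, Ccr4, Ccr8, Xcr1 and Cxcr3, all of which were tested. From naive to Th2 cells 4 of 6 were called higher in both genotypes, with 1 lower in WT and none in Setdb1 KO, where 65.9% of all genes in WT and 53.5% in Setdb1 KO were called either way. Ccr4, the receptor for Ccl22, went from 3.6 in naive WT to 3165 in Th2 WT on average (log2 10.06), although its ligand gene stayed near 0. Ccr8, the receptor for Ccl1, went from 22.8 to 1665 (6.18) and Ccr1 from 2.73 to 486 ± 65 (7.57).

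**Figure D4:**
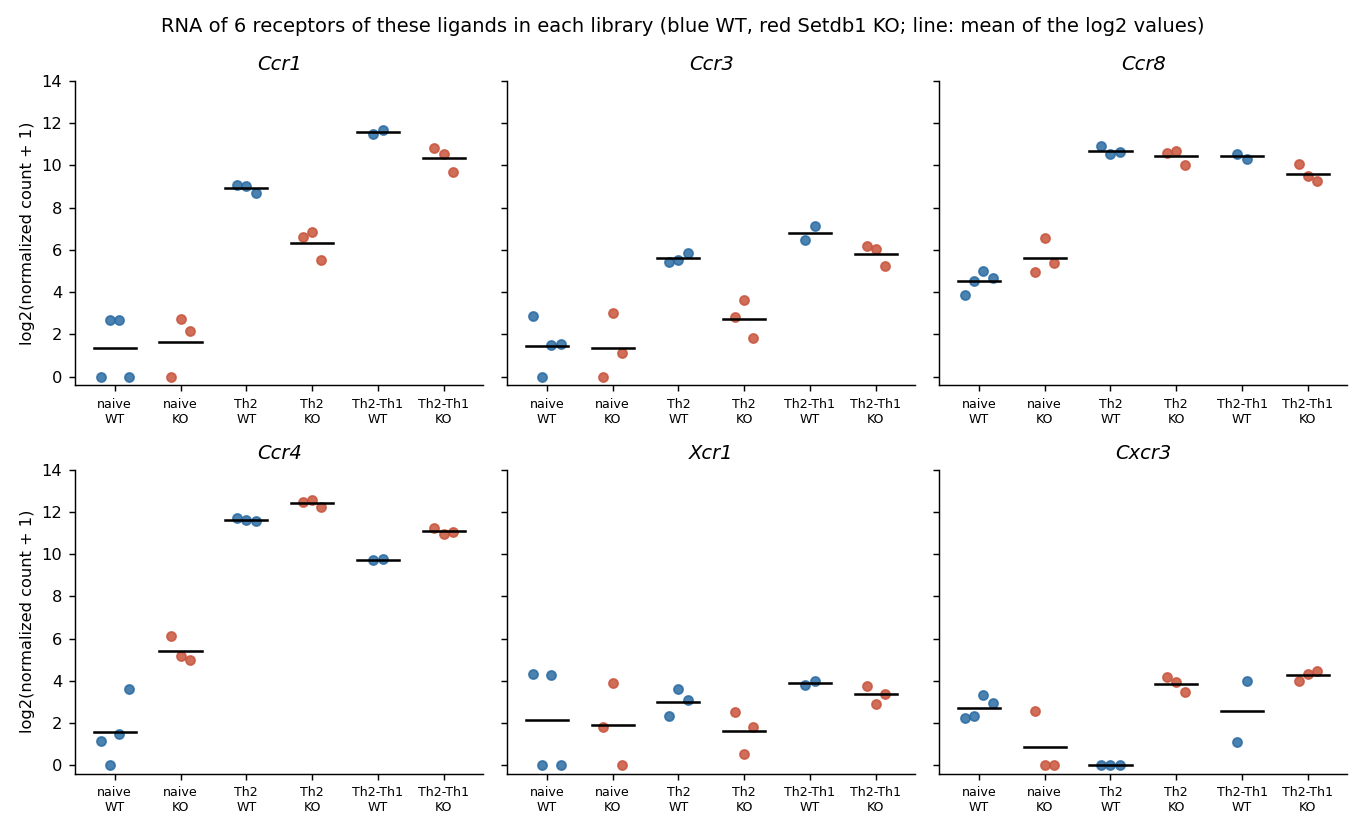
log2(normalised read count + 1) of 6 genes for receptors of the ligands in each of the 18 RNA libraries, by group, with 1 point per library and lines at group means. Ccr1, Ccr4 and Ccr8 are higher in all Th2 and Th2-Th1 libraries than in naive ones, and Cxcr3 is at or below 21.2 in every library.

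After the switch in WT, Ccr1 (2913 and 3280 against 411.6 to 532.3, log2 2.68, adjusted p = 0.0092) and Cxcr3 (2.57, adjusted p = 0.0199) were called higher and Ccr4 lower (-1.90, adjusted p = 0.0124). In libraries labelled Setdb1 KO, 2 were called higher, Ccr1 (4.02) and Ccr3 (3.09), and none lower. Of all genes 49.8% in WT and 26.7% in Setdb1 KO were called either way at the switch. Between genotypes Ccr4 (3.85 ± 0.50, adjusted p = 3.15e-05) and Ccr8 (1.12, adjusted p = 0.0249) were higher in naive Setdb1 KO. In Th2 cells Cxcr3 was higher in Setdb1 KO (9.99 to 17.1 against 0 in all 3 WT libraries, 3.86, adjusted p = 0.00034), and Ccr3 (-2.87) and Ccr1 (-2.59) were lower. In Th2-Th1 cells limma called none of the 6 between genotypes. The shares of all genes called either way between genotypes were 10.9% in naive, 54.0% in Th2 and 33.7% in Th2-Th1 cells.

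Lists of other receptors and of signalling genes moved both ways, beside 33.7% of all genes called in Th2-Th1 cells between genotypes, 54.0% in Th2 cells and 49.8% after the switch in WT. Of 11 tested other or atypical chemokine receptors, 3 were higher and 0 lower in Th2-Th1 cells labelled Setdb1 KO, 1 higher and 4 lower in Th2 cells, and 1 higher and 5 lower after the switch in WT. Of 16 chemokine receptor signalling genes, 5 were higher and 6 lower in Th2-Th1 cells labelled Setdb1 KO, 6 and 6 in Th2 cells, and 4 and 5 after the switch in WT.

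Of 23 genes known to regulate these ligands, 10 were called higher and 2 lower in Th2-Th1 libraries labelled Setdb1 KO, where 33.7% of all genes were called either way. The largest were Ifng, which encodes the interferon that induces Cxcl10 (log2 7.64 ± 0.77, adjusted p = 4.08e-07), Irf8 (4.22) and Tbx21, the Th1 regulator T-bet (3.70, adjusted p = 0.0016). In Th2-Th1 cells Ifng averaged 57.3 ± 19.2 in WT (n = 2) and 12190 ± 5150 in Setdb1 KO (n = 3). In Th2 cells 11 were higher and 6 lower (54.0% of all genes either way), led by Eomes (5.85), Irf8 (-3.78) and Ifng (3.38). In naive cells 7 were higher and 2 lower (10.9% of all genes), led by Eomes (-2.64), Rel (1.18) and Irf4 (1.17). After the switch 6 were higher and 7 lower in WT (49.8% of all genes), led by Tbx21 (6.85), Irf8 (-4.18) and Fos (-3.22). In Setdb1 KO 11 were higher and 4 lower (26.7% of all genes), led by Tbx21 (7.30), Ifng (7.13) and Irf8 (3.82). In naive Setdb1 KO libraries the Ifng mean was 4.48 and the Cxcl10 mean 32.7 ± 4.27 (n = 3). The part of Ifng in the level of Cxcl10 was not tested.

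Macrophages, dendritic cells, mast cells, B cells, CD8 T cells and NK cells can also make these chemokines, and markers of some moved with the groups. The summed level of 7 macrophage, monocyte and neutrophil markers was 39.5 to 68.51 in Th2-Th1 WT libraries and 915.4 to 1590 in Setdb1 KO. Most of it was Ly6g (1082 against 11.15), while S100a8 was at 0 in both groups and Csf1r, the macrophage growth factor receptor, averaged 4.59 against 1.77. Of the markers tested there, Ly6g (log2 6.48), Fcgr3 (1.45, adjusted p = 0.0361), the dendritic cell factor Zbtb46 (1.93), the mast cell receptor Kit (4.52) and the NK and CD8 T cell receptor Klrk1 (6.84) were called higher with the Setdb1 KO label, and Cd8b1 lower (-2.15). In Th2 cells Ly6g (3.59), Cd8a (4.55) and the mast cell protease Cpa3 (6.72) were called higher, and Flt3 (-4.89) and Cd8b1 (-0.89) lower. Dendritic cell markers summed to 66.14 to 77.84 in Th2-Th1 WT and 172.4 to 238.9 in Setdb1 KO, and mast cell and basophil markers to 3.485 to 16.54 and 51.09 to 64.54. In Th2 cells the mast cell sum was 0 to 14.11 in WT and 290.1 to 405.2 in Setdb1 KO, and in naive cells 0 to 39.83 and 101.6 to 183.4, with Ms4a2, a subunit of the high-affinity IgE receptor, at 0 in both of those groups labelled Setdb1 KO. CD8 T and NK cell markers summed to 186.6 to 201 in Th2-Th1 WT and 253.2 to 418.2 in Setdb1 KO, with Ncr1 at 0 in both. B cell markers summed to 0 to 251.7 over all libraries. The markers moved with the switch as well. With the Setdb1 KO label the macrophage, monocyte and neutrophil sum was 171.9 to 467.4 in Th2 and 915.4 to 1590 in Th2-Th1. The dendritic cell sum was 11.64 to 22.48 and 172.4 to 238.9, and the CD8 T and NK cell sum 101.2 to 133.5 and 253.2 to 418.2. Other sums fell: the mast cell and basophil sum was 290.1 to 405.2 and 51.09 to 64.54, and the B cell sum 46.46 to 52.45 and 5.87 to 11.82. Single markers went both ways within lists. Among them Cpa3 (log2 -7.43), Cd8a (-4.02) and Fcgr3 (-2.13) were called lower, and Kit (5.03), Klrk1 (6.83) and Ly6g (6.45) higher. In WT the macrophage, monocyte and neutrophil sum was 282 to 455.7 in Th2 and 39.5 to 68.51 in Th2-Th1. The dendritic cell sum was 154 to 224.5 and 66.14 to 77.84, and the CD8 T and NK cell sum 102.8 to 202.1 and 186.6 to 201. The mast cell and basophil sum in WT was 0 to 14.11 and 3.485 to 16.54, and the B cell sum 18.56 to 52.39 and 0 to 5.906. The part of these cells in the rise of the ligands at the switch and in the differences between genotypes was not tested.

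Peak lists were read within 50 kb of each gene. Each list stands for its whole group, so there are no replicates and no test. The ATAC-seq lists, all H3K27ac and H3K4me1 lists of the second Th2 experiment and the naive Setdb1 KO H3K9me3 list come from a single sample each. The other lists pool the samples of their group. Ccl3, Ccl4, Ccl9 and Ccl5 lie close enough on chromosome 11 to share peaks. All 8 ligands had an H3K4me1, an H3K27ac and an ATAC-seq peak within 50 kb in every list of those marks. Nearly all genes had one in so wide a window, so this count could hardly come out otherwise and compares nothing. For H3K4me1 the share of all placed genes was 92.4% in naive WT, 94.0% in Th2 WT, and 94.6% (WT) and 95.1% (Setdb1 KO) in the second Th2 experiment. For H3K27ac it was 91.5% in WT and 92.1% in Setdb1 KO, and for ATAC-seq 97.2% and 96.4%. On the gene itself, H3K27ac peaks lay on 2 of 8 ligands in Th2 WT, Ccl3 and Ccl4 through 1 shared peak, and on 0 in Setdb1 KO. Of placed genes, 76.4% and 76.1% carried one. ATAC-seq peaks lay on 4 and 2 ligands, beside 85.7% and 82.7%. H3K4me1 peaks lay on 2 to 4 ligands, depending on the list, beside 80.2% to 83.4%. Gene length was not taken into account in these shares.

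H3K9me3 lay within 50 kb of 2 ligands in naive WT, Ccl1 and Xcl1 (55.2% of all genes had such a peak), and of 5 in Th2 WT, Ccl5 and Ccl9 through 1 shared peak, Ccl1, Ccl22 and Cxcl10 (56.7%). It lay near 0 of 8 in naive Setdb1 KO (6.48%) and 0 of 8 in Th2 Setdb1 KO (4.96%), and near all 8 in Th2 Suv39h1 KO (91.5%). None of these peaks was on a ligand gene itself, whereas 16.0% of placed genes carried one in naive WT, 1.80% in naive Setdb1 KO, 17.0% in Th2 WT, 1.68% in Th2 Setdb1 KO and 43.7% in Suv39h1 KO. The lists held 9659 peaks in naive WT, 1163 in naive Setdb1 KO, 12233 in Th2 WT, 1708 in Th2 Setdb1 KO and 43404 in Th2 Suv39h1 KO, and the ligands followed those totals. All 4 Th2 WT peaks near ligands were overlapped in the Suv39h1 KO list, where they met 4 of 19 peaks, or 21.1%. The overlap over all peaks of the 2 lists was not computed, so these counts do not show a trait of the ligands.

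Of the 6 ligands with a RefSeq start site in use, Cxcl10 was the one with an ATAC-seq peak over its start. Its ATAC-seq peak ran over chr5:92348678-92349132 in Th2 WT and chr5:92348779-92349100 in Th2 Setdb1 KO, 455 and 322 bp, and covered most of the promoter window printed above. An H3K4me1 peak covered the start in naive WT and in both Th2 WT lists, while in the Setdb1 KO list one had its edge 30 bp downstream of the start and another 511 bp upstream. A Th2 WT H3K9me3 peak at chr5:92351551-92352600, with a score below its list's median, lay 2662 bp upstream of the start. No peak was listed there in Th2 Setdb1 KO, and in Suv39h1 KO a peak at chr5:92350051-92352750 began 1162 bp upstream. The gene's level in Th2 cells did not separate WT from Setdb1 KO, as given above.

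**Figure D5:**
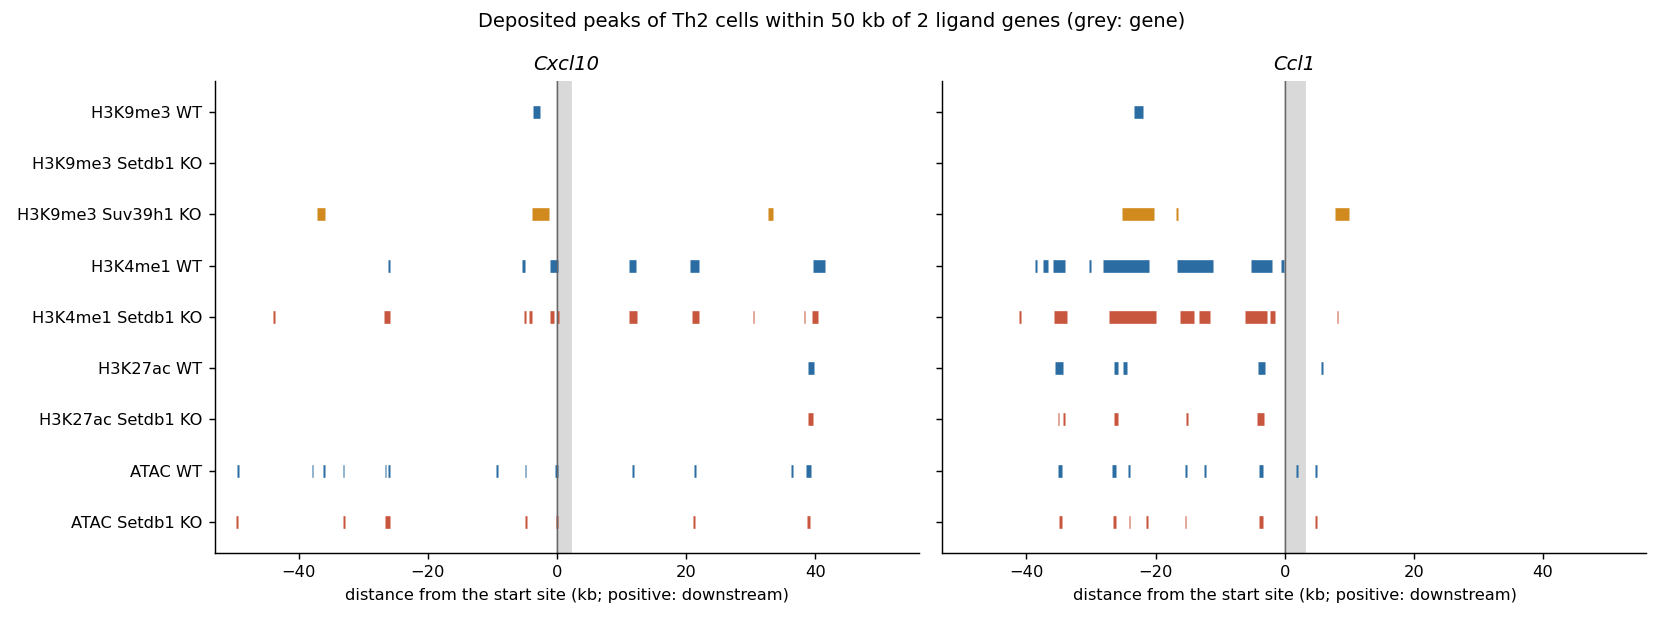
Deposited peaks around Cxcl10 and Ccl1 in Th2 cells, 1 row per list, by distance from the start site in kb (downstream positive), with peaks narrower than 0.25 kb drawn at that width. Cxcl10 has ATAC-seq peaks over its start in WT and Setdb1 KO and an H3K9me3 peak upstream in WT and Suv39h1 KO. The H3K9me3 row of Setdb1 KO holds no peak at either gene, and the Cxcl10 H3K9me3 peak of WT scored below its list's median.

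Ccl3 had an H3K27ac peak on the gene in Th2 WT (chr11:83648636-83649269), whose edge lay 109 bp downstream of the start, and in Setdb1 KO the nearest was 6978 bp away. Ccl5 had its nearest H3K27ac peak at 2505 bp in Setdb1 KO and at 19240 bp in WT. Ccl1 had one 3036 bp upstream of its start in WT and 3271 bp in Setdb1 KO, and an ATAC-seq peak on the gene in WT but not in the Setdb1 KO list. For Cxcl10 the nearest H3K27ac peak was 36650 bp away in WT and 36653 bp in Setdb1 KO. The Ccl3 peak in WT, the Ccl5 peak at 2505 bp in Setdb1 KO and the Ccl1 ATAC-seq peak in WT scored below the median of their lists. The lists also differed in size, with 31236 (WT) and 40734 (Setdb1 KO) H3K27ac peaks and 92129 and 58523 ATAC-seq peaks. These H3K27ac and ATAC-seq lists come from a single sample per genotype, so the differences between them were not tested.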

How the data were processed

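RNA was measured in 18 libraries, and chromatin was read from peak lists, pooled where a group had several samples. The submitters' processing notes name cutadapt 1.3, TopHat2 2.0.5, BWA 0.7.10, MACS2 2.1.0, DESeq and the mm10 build, with the annotation and strand setting of counting not given in the sources used here. RNA signal values were deposited by the authors as gene counts scaled by library size factors, and whole reads were recovered from 100% of values within 0.01. The deposited table holds every gene in 2 identical copies, of which the first was read. The peak score was given by the authors and was used only to keep, as an alternative, peaks at or above a list's median. The fold enrichment (ratio) and the −log10 p-value columns, deposited by the authors in the MACS2 layout, were not used in any result. The H3K9me3 lists have a caller not given in the sources used here.

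Both the genes described and the gene lists were chosen with earlier results of these data known. limma 3.58.1 (trend, R 4.3.3) was fitted on log2(value + 1) over all 18 libraries with 1 coefficient per group and 12 residual degrees of freedom. The test took genes at 10 or more in 2 libraries, 17254 in all, with Benjamini-Hochberg adjustment and a threshold of 0.05. Fold changes from this scale understate the change of low genes, so ratios of means are given beside them. Against groups without reads a floor of 3 reads per library was used. As alternatives, count models were run on the recovered reads, edgeR 4.0.16 by quasi-likelihood and DESeq2 1.42.0, which called 1922 and 2598 genes between genotypes in naive cells, 9387 and 9371 in Th2 cells and 6176 and 6419 in Th2-Th1 cells. The scripts were tested on simulated data.

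The text always names the 8 ligands and Setdb1, the 2 genes nearest to each ligand in profile (predicted genes left out), and up to 3 called genes per list and comparison with the largest change. A gene of the receptor list is not reported here. Gene lists were fitted with all other genes and are described by counts. Gene positions came from RefSeq (GRCm38.p6) by symbol for 94.1% of tested genes. Other alternatives were pseudocounts of 0.5 and 5, no filter or a filter at 50, TMM scaling, thinned reads, a replicate block, only the groups compared, left-out libraries, and peak windows of 10 and 100 kb or overlap with the gene. Python 3.11.15 and Matplotlib 3.10.9 were used.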

Additional observations from a re-analysis of the deposited data

Results flagged for a closer look

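In naive WT cells, 1 of the 4 libraries stood apart from the other 3 at 4 of the 8 ligands. Ccl3 was at 9.05 in replicate 3 (5 reads), Ccl4 at 1.25 in replicate 1 (1 read), Ccl5 at 5.48 in replicate 2 (4 reads) and Ccl1 at 10.9 in replicate 3 (6 reads), each against 0 in the other 3 libraries. Each gap exceeded Dixon's 95% critical value for 4 samples, but with 3 libraries at 0 any read in the fourth does so by construction. The usual rate, by which chance flags about 1 in 20 groups, therefore does not apply to these 4 of the 8 groups examined, and no weight is given to them. The libraries that stood apart were not the same one for all 4 genes, and every value rests on 6 reads or fewer.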

How the results depend on the processing

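Over the 14 differences of the 7 tested ligands between Th2-Th1 and Th2 cells, 213 of 224 alternatives kept direction and side of the threshold. Ccl5 in Setdb1 KO lost its call in 2, Cxcl10 in Setdb1 KO gained one in 5, and Cxcl10 in WT changed sign in 4. The 39 ligand differences kept for this check were chosen from those reported and are not every difference tested. Over these 39, 593 of 660 alternatives kept direction and side of the threshold, 24 lost a call, 32 gained one and 11 changed sign. The cause of each change was not tested.

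The number of ligands called between genotypes in naive cells, 1, became 2 at a pseudocount of 0.5, with a filter at 50 and with DESeq2, 0 without a filter, 0 without the 3 naive libraries with reads on more genes, and 0 to 2 with single libraries left out. In Th2 cells, 1 became 0 at a pseudocount of 0.5 and without a filter, 2 with thinned reads, and 0 to 1 with single libraries left out. In Th2-Th1 cells, 2 became 1 at a pseudocount of 0.5, 4 at 5 and 4 with only the groups compared, and 0 to 2 with single libraries left out. Leaving out Th2-Th1 WT replicate 2 or Setdb1 KO replicate 1 gave 0. The interaction counts of 0 became 1 (step to Th2) and 2 (switch) at a pseudocount of 5, and for the switch 1 with edgeR, 1 with DESeq2 and 1 with only the groups compared. With single libraries left out both ran from 0 to 1.

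Within the ligand differences kept for this check, signs changed only among those that were not called. Ccl4 between genotypes in Th2 cells was -0.0499 with DESeq2 and -0.19 to 0.19 with single libraries left out. In Th2-Th1 cells Ccl3 ran from -0.24 to 0.72, Ccl1 from -0.0474 to 1.02 and Ccl9 from -0.90 to 0.43 with single libraries left out. Cxcl10 after the switch in WT was -0.15 with edgeR, -0.16 with DESeq2 and -0.87 to 1.52 with single libraries left out.

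Replicate numbers did not pair the samples: the correlation of deviations between same-numbered libraries ran from -0.411 to 0.13. With the replicate block, 2 ligands were called between genotypes in naive cells in place of 1, and the other counts were within 1.5 times of those without it.

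For peaks, H3K9me3 in naive WT went from 2 ligands within 50 kb to 0 within 10 kb, 7 within 100 kb and 0 on the gene. The share of all placed genes went from 55.2% to 28%, 71.1% and 16%. In Th2 WT H3K9me3 went from 5 ligands to 2 within 10 kb, 0 on the gene and 1 for peaks at or above the median score. The share of placed genes there went from 56.7% to 28.9%, 17% and 38.7%. In Suv39h1 KO H3K9me3 went from 8 ligands to 0 on the gene, and the share from 91.5% to 43.7%. H3K27ac went from 8 to 3 (WT) and 5 (Setdb1 KO) within 10 kb, beside 83.9% and 84.2% of placed genes. On the gene it went to 2 in WT, Ccl3 and Ccl4 through the same peak, and to 0 in Setdb1 KO, beside 76.4% and 76.1%. At or above the median score it went to 5 in WT, beside 86.2%. On the gene, H3K4me1 went from 8 to 3 in naive WT (80.2% of placed genes) and 2 in Th2 WT (82.7%). In the second experiment it went to 4 in each list (82% in WT, 83.4% in Setdb1 KO). ATAC-seq on the gene went from 8 to 4 in WT (85.7%) and 2 in Setdb1 KO (82.7%).

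Depth limits Ccl1, Ccl9, Xcl1, Ccl22 and Cxcl10 most, since 3 reads stand for a normalised count of 2.83 to 5.43 in naive and 5.57 to 7.48 in Th2 WT libraries, against 1.19 to 1.5 in Th2 Setdb1 KO. With 2 Th2-Th1 WT libraries, differences between genotypes after the switch rest on the spread of the other groups when either is left out.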
